A study of Rattus norvegicus with 8 samples.

Results

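The 8 rat genes described here encode subunits of voltage-gated calcium channels: the pore-forming Cacna1b (N-type), Cacna1a (P/Q-type), Cacna1c (L-type) and Cacna1h (T-type), the auxiliary α2δ subunits Cacna2d1, Cacna2d2 and Cacna2d3, and the cytoplasmic β subunit Cacnb3. Every non-control probe whose RefSeq accession belonged to one of them was taken, which gave 11 probes of 30367 on the array and 8 genes of 15154 with a symbol. Cacna1a, Cacna1b and Cacna1c had 2 probes each and the other 5 genes had 1. The step from gene to probe uses no measured value, though the 8 genes were chosen with earlier results of these data known. All 11 probes passed the filter on dim probes.

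The RNA came from dissociated dorsal root ganglion cultures of neonatal Wistar rats aged 0 to 5 days, with male and female cells pooled. Cultures stood for 2 to 3 days in serum-free medium with a mitotic inhibitor and were then kept for 5 days with 100 ng/ml of a human protein. The protein carried both substitutions (P61S/R100E, 3 arrays), the first alone (P61S, 3 arrays) or neither (wild type, 2 arrays), so the arrays compared 3 forms of 1 protein, and a culture without it was not analysed here. Whether each replicate was a culture of its own is not given in the labels, so p-values measure only the spread between these samples, which may be technical.

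Voltage-gated calcium channels open when the membrane depolarises and let calcium into the cell, which in sensory neurons triggers transmitter release, shapes firing and links activity to gene expression. The pore-forming α1 subunit sets the channel type, while β and α2δ subunits bring the high-voltage-activated types to the membrane and tune their gating. Low-voltage-activated T-type pores can work without them. In dorsal root ganglion the N-type channel and the α2δ-1 protein encoded by Cacna2d1 are the targets of analgesic drugs, ziconotide for the pore and gabapentin for α2δ-1.

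In limma, 0 of the 11 probes passed an adjusted p of 0.05 in each of the 3 comparisons, as did 0% of the 23585 probes tested. The Cacna2d1 probe was higher in all 3 P61S/R100E arrays than in the other 5, as for 2.37% of tested probes, by a mean of 0.34 on the log2 scale against P61S and by 0.34 against wild type, and neither difference was past the threshold. The dimmer Cacna1c probe was lower in all 3 P61S/R100E arrays than in the other 5, as for 3.14% of tested probes, again without passing, and this order rested on the removal of 1 outlier spot on P61S/R100E replicate 2. For the other 9 probes the P61S/R100E arrays overlapped those of both other groups. In whole cultures, fewer cells of a type and less RNA per cell cannot be told apart.

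All 8 arrays lay on 1 slide, and 78.7 to 88.8% of their spots were well above background, with the 75th percentile of the signal between 3267 and 5269 intensity units and no saturated spot. Values below are log2 signals relative to the 75th percentile of the array, so 0 is the 75th percentile itself. Wild type replicate 2 stood apart from the rest, with correlations of 0.983 to 0.989 with the other arrays over tested probes. Its 75th percentile was the lowest of the 8, at 3267, and its share of outlier spots the highest, at 1.98%. It was the highest array for 37.2% of all tested probes and for 7 of the 11 calcium channel probes. Those 7 all read below the 75th percentile. For the brighter Cacna1b probe and the Cacna2d1 probe, which read above it, wild type replicate 2 was the lowest array. P61S/R100E replicate 2 had the highest 75th percentile, at 5269, and was the lowest array for 23.0% of all tested probes, the largest such share. With outlier spots left out it was the lowest for 3 of the 11 probes, the dimmer ones of Cacna1a, Cacna1b and Cacna1c. It was the highest for 3, the brighter Cacna1b probe and those of Cacna2d1 and Cacna2d2. Whether the place of either array follows the signal level was not tested. Each comparison of a calcium channel probe with wild type is also given without wild type replicate 2. Of the 9 lists of cell type markers, that of sensory neurons had 11 of 11 measured genes well above background on every array. So did those of nociceptors (6 of 6), large-diameter neurons (4 of 4), Schwann cells (8 of 8), fibroblasts (6 of 6) and macrophages (6 of 6). Summed sensory neuron signals were 183 to 197 in P61S/R100E arrays, 170 to 197 in P61S arrays and 181 to 207 in wild type arrays, in units of the 75th percentile.

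RefSeq promoter windows of the GRCr8 build, running from 250 bases before to 50 after the annotated start, were at hand for 7 of the 8 genes (9 windows). The windows of Cacna2d1 and Cacna1c are shown because these genes had the probes on which the P61S/R100E arrays did not overlap the others once marked outlier spots were left out, and both were picked after those values were seen. With outlier spots kept, the Cacna2d1 arrays still did not overlap and the Cacna1c arrays did. Capitals mark GGGCGG, the GC box, or its reverse complement CCGCCC, and overlapping matches run together. The Cacna2d1 window lies at chr4:20330098-20330397 and the Cacna1c window at chr4:154051699-154051998, both on the minus strand and printed 5′ to 3′ along the gene.
Cacna2d1: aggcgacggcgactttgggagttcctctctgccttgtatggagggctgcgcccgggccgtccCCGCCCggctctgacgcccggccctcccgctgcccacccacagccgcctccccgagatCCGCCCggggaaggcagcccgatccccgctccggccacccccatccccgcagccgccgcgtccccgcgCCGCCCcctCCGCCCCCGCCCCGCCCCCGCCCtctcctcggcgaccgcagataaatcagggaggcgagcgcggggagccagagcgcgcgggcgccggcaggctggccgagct
Cacna1c: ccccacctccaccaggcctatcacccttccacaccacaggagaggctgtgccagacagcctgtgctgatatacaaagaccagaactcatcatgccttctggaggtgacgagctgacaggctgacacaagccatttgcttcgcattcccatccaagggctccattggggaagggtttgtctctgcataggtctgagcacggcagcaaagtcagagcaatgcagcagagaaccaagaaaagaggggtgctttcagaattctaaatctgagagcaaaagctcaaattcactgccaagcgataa
The Cacna2d1 window shown held 7 GC boxes and 78.3% G and C. The other 2 annotated starts of the gene lie close by, with windows that overlap each other and the end of the printed one. Those 2 windows held 3 GC boxes each, 75.7% and 73% G and C, and 0 matches to TGACG. The Cacna1c window held 0 GC boxes and 51.7% G and C, the same as the median of 51.7% over 33469 rat promoter windows. A GC box on either strand occurred in 33.1% of those windows. The windows of Cacna1a, Cacna1b, Cacna2d2, Cacna2d3 and Cacnb3 held 1 to 4 GC boxes and 72 to 79.3% G and C. A window rich in G and C was thus not particular to Cacna2d1. Both printed windows also held 1 match to TGACG, a core of cAMP-responsive elements, which occurred on either strand in 21.2% of windows. Neither printed window held TGANTCA (the AP-1 site, in 7.33% of windows) or TATAAA (in 14.2%). The arrays measured RNA and not promoter activity, so these letters are a description only.

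**Figure D1:**
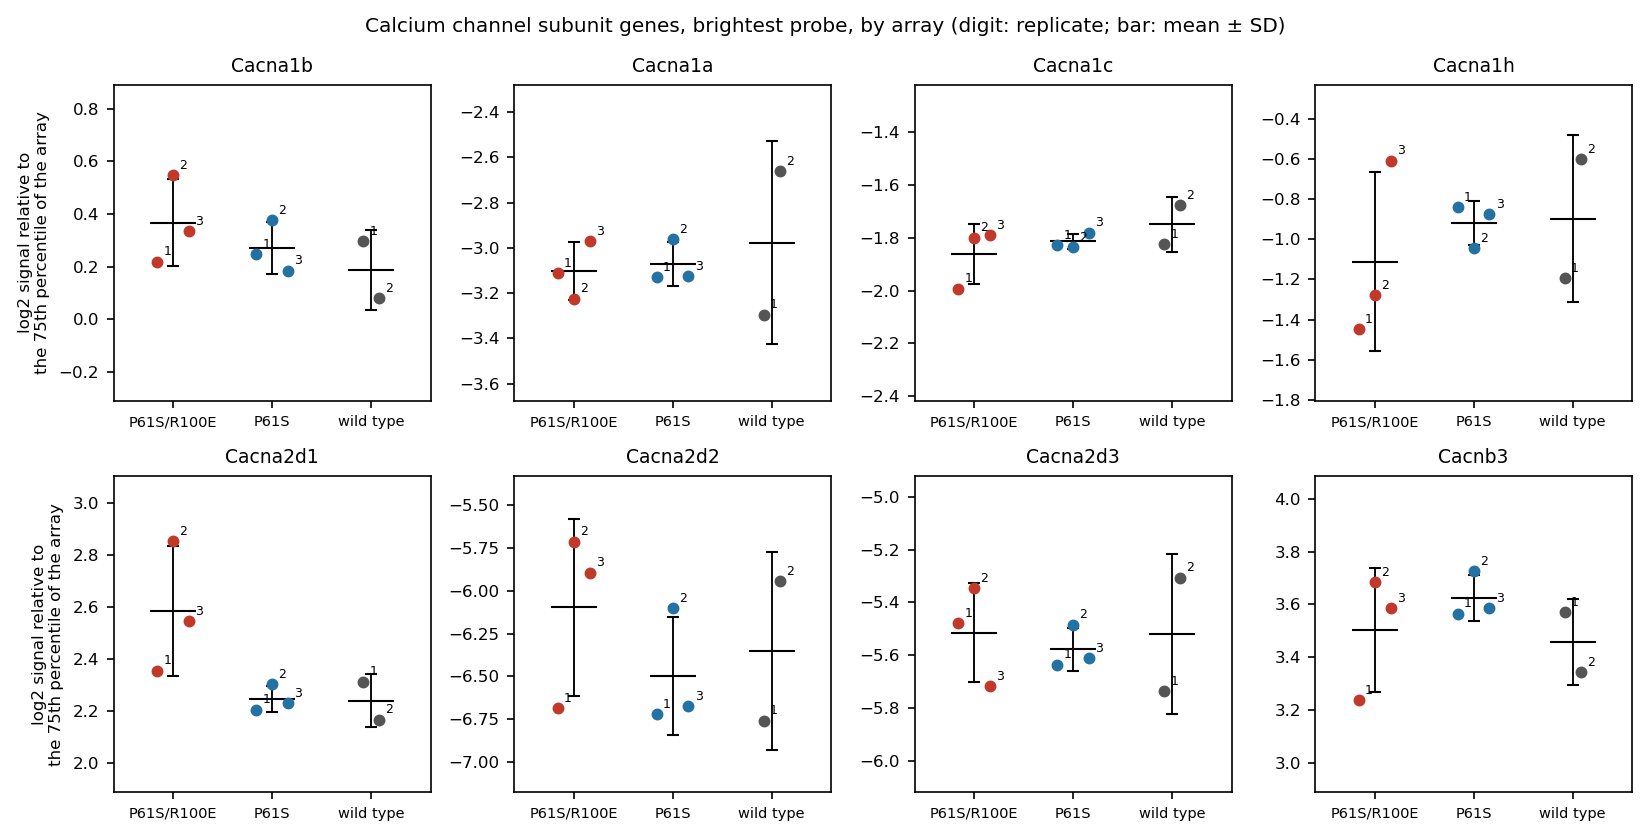
Log2 signal relative to the 75th percentile of the array (vertical axis) for the brightest probe of each of the 8 genes, by group on the horizontal axis; points are single arrays numbered by replicate, and bars give the mean ± SD of 3 P61S/R100E, 3 P61S and 2 wild type arrays. In the Cacna2d1 panel the 3 P61S/R100E arrays, at 2.35 to 2.85, sit above the other 5, while in the other 7 panels the groups overlap.

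Cacna1b encodes the pore of the N-type channel, which carries much of the calcium current at sensory nerve terminals. Its brighter probe (A_42_P787410, 10 spots per array) read 0.22, 0.55 and 0.34 in P61S/R100E replicates 1 to 3, 0.25, 0.38 and 0.19 in P61S replicates 1 to 3, and 0.30 and 0.08 in wild type replicates 1 and 2. The highest array was P61S/R100E replicate 2 and the lowest wild type replicate 2, and all 3 groups overlapped. Group means were 0.37 ± 0.17 in P61S/R100E, 0.27 ± 0.10 in P61S and 0.19 ± 0.15 in wild type (SD, n = 3, 3 and 2). The difference of P61S/R100E from P61S was 0.10 (SE 0.117, 95% interval -0.18 to 0.37), from wild type 0.18 (SE 0.131, -0.13 to 0.49), and of P61S from wild type 0.08 (SE 0.131). The order of the means ran from P61S/R100E through P61S to wild type, and no neighbouring pair differed beyond its spread. Without wild type replicate 2 the difference of P61S/R100E from wild type was 0.07 and that of P61S from wild type -0.03.

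The dimmer Cacna1b probe (A_64_P399288), designed on another transcript record of the gene (NM_001195199 in place of NM_147141), read -5.81, -6.43 and -5.64 in P61S/R100E arrays, -5.85, -5.88 and -6.06 in P61S arrays and -6.12 and -4.30 in wild type arrays. Wild type replicate 2 was over 1 log2 unit above every other array, and wild type replicate 1 lay among the remaining arrays. The difference from wild type was -0.75 (SE 0.501) for P61S/R100E and -0.72 (SE 0.501) for P61S, and between P61S/R100E and P61S it was -0.03 (SE 0.448). Without wild type replicate 2 the comparisons with wild type turned to 0.16 for P61S/R100E and 0.19 for P61S, so the sign on this probe rested on 1 array. The 2 Cacna1b probes therefore had opposite signs against wild type with all 8 arrays.

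Cacna1a encodes the P/Q-type pore, the main presynaptic calcium channel at many central synapses. Its brighter probe (A_64_P316652) read -3.11, -3.22 and -2.97 in P61S/R100E arrays, -3.13, -2.96 and -3.13 in P61S arrays and -3.29 and -2.66 in wild type arrays. The lowest and the highest of the 8 arrays were the 2 wild type replicates, so the other groups lay inside the wild type range. The difference of P61S/R100E from P61S was -0.03 (SE 0.169), from wild type -0.13 (SE 0.189), and of P61S from wild type -0.10 (SE 0.189). Leaving out wild type replicate 2 gave differences from wild type of 0.19 for P61S/R100E and 0.22 for P61S.

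The other Cacna1a probe (A_44_P306551) had 1 spot per array and was well above background on 7 of 8 arrays, the exception being P61S/R100E replicate 2. It read -7.42, -8.11 and -7.27 in P61S/R100E arrays, -7.81, -6.64 and -7.40 in P61S arrays and -7.90 and -5.99 in wild type arrays, a range of 2.12 over the 8 arrays with the groups overlapping. Its differences were -0.32 (SE 0.535) for P61S/R100E from P61S, -0.66 (SE 0.599) for P61S/R100E from wild type and -0.34 (SE 0.599) for P61S from wild type. Leaving out wild type replicate 2 turned the differences from wild type to 0.30 for P61S/R100E and 0.62 for P61S. With standard errors this wide, a difference of the size seen for Cacna2d1 was not detectable on this probe.

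Cacna1c encodes an L-type pore, which couples depolarisation to gene expression in neurons and to contraction in muscle. The brighter probe (A_44_P203145, 10 spots) read -1.99, -1.80 and -1.79 in P61S/R100E arrays, -1.83, -1.83 and -1.78 in P61S arrays and -1.82 and -1.68 in wild type arrays. The whole range over 8 arrays was 0.32, the narrowest of the 11 probes, and the groups overlapped. Differences were -0.05 (SE 0.0900) for P61S/R100E from P61S, -0.11 (SE 0.101) for P61S/R100E from wild type and -0.06 (SE 0.101) for P61S from wild type. When wild type replicate 2 was left out, P61S/R100E differed from wild type by -0.04 and P61S by 0.01. The scanner software marked a spot of this probe as an outlier on 7 of 8 arrays, and it was left out there.

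The dimmer Cacna1c probe (A_64_P057746), which carries the same transcript accession, read -5.61, -5.67 and -5.52 in P61S/R100E arrays, -5.36, -5.17 and -5.40 in P61S arrays and -5.50 and -4.76 in wild type arrays. All 3 P61S/R100E arrays were below the other 5, though replicate 3 lay only just under wild type replicate 1. The probe has 2 spots per array, and on P61S/R100E replicate 2 the scanner software marked one of them as an outlier, with a signal of 697 against 104 intensity units in the other. With that spot kept, replicate 2 read -4.29, the highest of the 8 arrays, so the separation rested on leaving out 1 spot. P61S/R100E minus P61S was then 0.17 (SE 0.372) and P61S/R100E minus wild type -0.01 (SE 0.416). With the spot left out, the difference from P61S was -0.29 (SE 0.187, 95% interval -0.73 to 0.16, limma unadjusted p = 0.169 and adjusted p = 0.999). From wild type it was -0.47 (SE 0.209, 95% interval -0.96 to 0.03, limma unadjusted p = 0.0610 and adjusted p = 0.746). Once wild type replicate 2 was left out, P61S/R100E differed from wild type by -0.09. P61S minus wild type was -0.18 (SE 0.209) with both wild type arrays and 0.19 without replicate 2. The brighter probe of the gene did not separate the groups, with the 95% interval of its difference from P61S at -0.26 to 0.17.

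**Figure D2:**
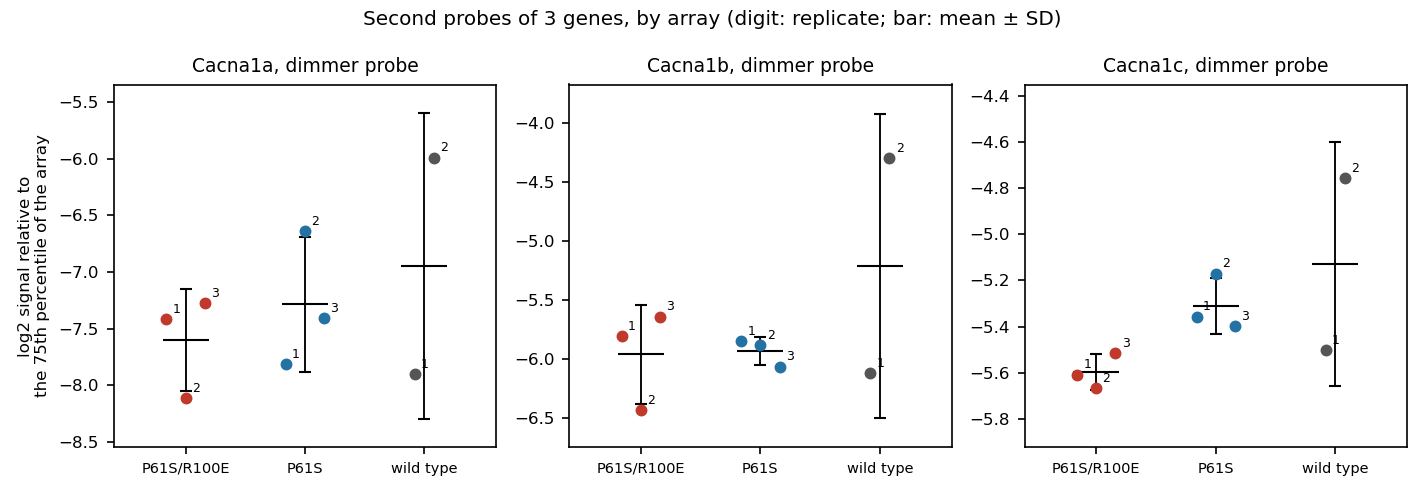
Log2 signal relative to the 75th percentile of the array (vertical axis) for the dimmer probes of Cacna1a, Cacna1b and Cacna1c, by group on the horizontal axis; points are single arrays numbered by replicate, and bars give the mean ± SD of 3 P61S/R100E, 3 P61S and 2 wild type arrays. Wild type replicate 2 is the highest point in all 3 panels, at -5.99, -4.30 and -4.76, with outlier spots left out.

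Cacna1h encodes a T-type pore, which lowers the threshold for firing in some sensory neurons. Its probe (A_64_P067366, 1 spot) read -1.45, -1.28 and -0.61 in P61S/R100E arrays, -0.84, -1.04 and -0.87 in P61S arrays and -1.19 and -0.60 in wild type arrays. P61S/R100E replicate 3 and wild type replicate 2 were the highest, and the ranges of both of those groups held the P61S range inside them. The difference of P61S/R100E from P61S was -0.19 (SE 0.248, 95% interval -0.78 to 0.40), from wild type -0.21 (SE 0.277) and of P61S from wild type -0.02 (SE 0.277). P61S/R100E minus P61S was -0.02 without P61S/R100E replicate 1, -0.11 without replicate 2 and -0.44 without replicate 3, so its size depended on single arrays. With wild type replicate 2 left out, P61S/R100E differed from wild type by 0.08 and P61S by 0.27.

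Cacna2d1 encodes α2δ-1, which raises the number of channels at the membrane and is known from rat models to increase in dorsal root ganglion after nerve injury. Its probe (A_64_P093812) read 2.35, 2.85 and 2.54 in P61S/R100E arrays, 2.20, 2.30 and 2.23 in P61S arrays and 2.31 and 2.17 in wild type arrays. All 3 P61S/R100E arrays were above the other 5, with replicate 2 far above and replicate 1 only 0.04 above wild type replicate 1, while P61S and wild type overlapped. Of all tested probes, 2.37% had their 3 P61S/R100E arrays above the other 5.

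Means of Cacna2d1 were 2.58 ± 0.25 in P61S/R100E, 2.25 ± 0.05 in P61S and 2.24 ± 0.10 in wild type (SD, n = 3, 3 and 2). P61S/R100E was 1.26-fold P61S, a log2 difference of 0.34 (SE 0.134, 95% interval 0.02 to 0.66, limma unadjusted p = 0.0400 and adjusted p = 0.999). Against wild type the fold was 1.27, a log2 difference of 0.34 (SE 0.150, 95% interval -0.01 to 0.70, limma unadjusted p = 0.0557 and adjusted p = 0.746). P61S and wild type differed by 0.01 (SE 0.150, 95% interval -0.35 to 0.36), less than the spread between replicates. The 2 spots of the probe agreed closely on each array, with a median SD of 0.0233 between them, so the spread of the P61S/R100E arrays was not between spots.

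The size of the Cacna2d1 difference varied with the arrays compared. Within the upper row of the slide, which held 1 P61S/R100E array, it was 0.10 against P61S and 0.04 against wild type, and within the lower row, with the other 2, it was 0.47 and 0.53. In the slide column that held 1 array each of P61S/R100E and P61S it was 0.55. Without P61S/R100E replicate 2 it was 0.20 against P61S and 0.21 against wild type, and without wild type replicate 2 it was 0.27 against wild type, while P61S minus wild type was then -0.07. With slide row as a block in the fit it was 0.31 against P61S and 0.33 against wild type. With a linear term for slide column it was 0.55 against P61S and 0.13 against wild type, and P61S minus wild type was -0.42. The value against P61S in that fit is that of the shared column again, 1 array against 1, and not a further result. Outside that column the P61S arrays lay in column 1 and the P61S/R100E arrays in column 3. Protein form and column cannot be told apart there. Both wild type arrays lay in a column of their own, so in that fit wild type and column were set apart only by the assumed straight line.

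Cacna2d2 encodes α2δ-2, a relative of α2δ-1 that also binds gabapentin. Its probe (A_64_P137630, 2 spots) read -6.69, -5.71 and -5.89 in P61S/R100E arrays, -6.72, -6.10 and -6.68 in P61S arrays and -6.76 and -5.94 in wild type arrays. P61S/R100E replicate 1, P61S replicates 1 and 3 and wild type replicate 1 sat at the bottom, P61S/R100E replicates 2 and 3 and wild type replicate 2 at the top, and all groups overlapped. The difference of P61S/R100E from P61S was 0.40 (SE 0.334, 95% interval -0.39 to 1.19), the widest among the 8 genes, from wild type 0.25 (SE 0.373) and of P61S from wild type -0.15 (SE 0.373). Against wild type replicate 1 alone the differences were 0.66 for P61S/R100E and 0.26 for P61S. The 2 spots of the probe disagreed on 2 arrays. On P61S replicate 1 the scanner software marked one of them as an outlier, with a signal of 652 against 49.0 intensity units in the other. With that spot kept, P61S/R100E minus P61S turned to -0.22 and P61S minus wild type to 0.47, so both signs rested on 1 spot. On P61S/R100E replicate 2 the spot at the same place on the array read -4.57 and the other -6.85, and neither was marked. That array was the highest of the 8 through 1 of its 2 spots.

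Cacna2d3 encodes α2δ-3, which has been tied to heat pain processing in flies and mice. Its probe (A_44_P257326) read -5.48, -5.35 and -5.72 in P61S/R100E arrays, -5.64, -5.48 and -5.61 in P61S arrays and -5.74 and -5.31 in wild type arrays. The 2 wild type arrays were again the lowest and the highest of the 8. Differences were 0.06 (SE 0.146) for P61S/R100E from P61S, 0.01 (SE 0.163) for P61S/R100E from wild type and -0.06 (SE 0.163) for P61S from wild type. The 95% interval of the difference between P61S/R100E and P61S was -0.28 to 0.41. Against wild type replicate 1 alone P61S/R100E differed by 0.22 and P61S by 0.16. The 3 α2δ genes were not tested against each other.

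Cacnb3 encodes a β subunit that binds the pore from inside the cell and promotes its delivery to the membrane. Its probe (A_44_P245314) read 3.24, 3.68 and 3.59 in P61S/R100E arrays, 3.56, 3.72 and 3.58 in P61S arrays and 3.57 and 3.34 in wild type arrays. P61S/R100E replicate 1 was the lowest array and P61S replicate 2 the highest, and the groups overlapped. Differences were -0.12 (SE 0.138, 95% interval -0.45 to 0.20) for P61S/R100E from P61S, 0.05 (SE 0.154) for P61S/R100E from wild type and 0.17 (SE 0.154, 95% interval -0.20 to 0.53) for P61S from wild type. Against wild type replicate 1 alone they were -0.07 for P61S/R100E and 0.05 for P61S. Within the upper slide row P61S/R100E minus P61S was -0.41 and within the lower row 0.05.

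Set side by side, the 8 genes did not move in 1 direction between P61S/R100E and P61S. Of the 11 probes 4 had positive and 7 negative differences, with a median of -0.03 against -0.02 over all 23585 tested probes. In limma 0 of 11 probes passed the adjusted threshold, as did 0% of all tested probes, and 1 probe, that of Cacna2d1, had an unadjusted p under 0.05, against 4.01% of all probes. The groups did not overlap for 2 of the 11 probes, those of Cacna2d1 and the dimmer Cacna1c probe, against 14% of all tested probes. P61S/R100E was the higher for 1 of the 2 (5.75% of all probes) and the lower for the other (8.23% of all probes). Counts of 1 and 2 among 11 probes are too small to be set apart from these shares.

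Between P61S/R100E and wild type, 5 of the 11 differences were positive and 6 negative, with a median of -0.11 against -0.06 over all probes. In limma 0 of 11 passed the adjusted threshold (0% of all probes) and 0 had an unadjusted p under 0.05 (5.04% of all probes). The groups did not overlap for 2 probes, against 15.1% of all tested probes, with P61S/R100E higher for 1 (5.86% of all probes) and lower for 1 (9.2% of all probes). When wild type replicate 2 was left out, 8 of the 11 differences were positive and their median was 0.16. Over all 12148 genes, each by its brightest tested probe, 6501 were positive and the median was 0.01. The 2 sets are not quite alike, as the 11 include dimmer probes. The sign of the median over the 11 probes thus depended on that array. Without wild type replicate 1, which leaves replicate 2 as the lone wild type array, limma called 2 of the 11 probes, the dimmer probes of Cacna1b and Cacna1c, among 1283 of 23894 probes.

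For P61S against wild type, 3 of the 11 differences were positive and 8 negative, with a median of -0.06 against -0.04 over all probes. In limma 0 of 11 passed the adjusted threshold (0% of all probes), 0 had an unadjusted p under 0.05 (2.07% of all probes) and 0 had groups that did not overlap (16.6% of all probes). After leaving out wild type replicate 2, 9 of the 11 were positive, with a median of 0.19. Over all 12148 genes, each by its brightest tested probe, 6915 were positive and the median was 0.02. Here too the sets are not quite alike, as the 11 include dimmer probes. The comparisons with wild type share its 2 arrays, and both P61S/R100E comparisons share 3, so their values are given side by side and not correlated.

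**Figure D3:**
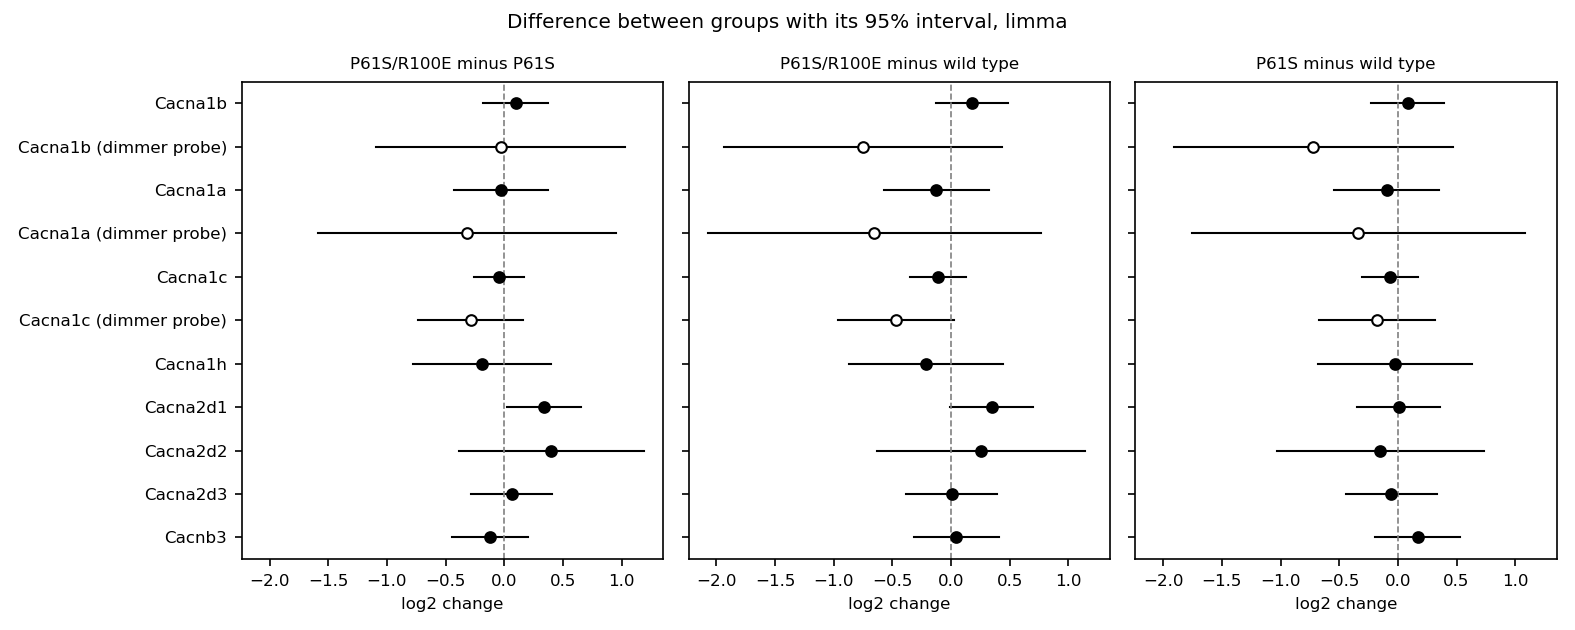
Log2 differences between groups (horizontal axis) with 95% intervals from limma for the 11 probes, in panels for P61S/R100E minus P61S, P61S/R100E minus wild type and P61S minus wild type; filled points are the brighter or only probe of a gene and open points the dimmer one. The Cacna2d1 interval against P61S, 0.02 to 0.66, is the one that leaves out 0 in the left panel, and all intervals include 0 in the other 2 panels.

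The remaining genes of the channel complex and its surroundings were taken from 5 lists with 73 genes, for each of which the brightest tested probe stood. Among other pore-forming subunits 4 of 6 were tested, and in each comparison limma called 0 and gave 0 an unadjusted p under 0.05. Cacna1e, the R-type pore, differed by 0.30 (SE 0.211) between P61S/R100E and P61S, and Cacna1s, the L-type pore of skeletal muscle, by -0.27 (SE 0.123). Against wild type they differed by 0.05 (SE 0.236) and -0.23 (SE 0.138), and by 0.20 and -0.14 without wild type replicate 2. The list's median was -0.04 for P61S/R100E minus P61S and -0.14 for P61S/R100E minus wild type, against -0.01 and -0.03 over all 12148 genes tested.

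Of the other auxiliary subunits 8 of 12 were tested, 0 were called and 0 had an unadjusted p under 0.05 in each comparison, with medians of -0.00 against P61S and -0.10 against wild type. Cacng2, better known as the AMPA receptor partner stargazin, differed by 0.19 (SE 0.126) between P61S/R100E and P61S and by 0.17 (SE 0.141) from wild type. Cacnb4, another β subunit, differed by -0.15 (SE 0.121) and -0.16 (SE 0.135). Against wild type replicate 1 alone the differences were 0.17 for Cacng2 and -0.13 for Cacnb4. Between P61S and wild type the members with the smallest p were Cacnb1 at 0.06 (SE 0.180), the β subunit of the muscle channel, and Cacng3 at -0.14 (SE 0.189), which turned to -0.11 and 0.02 without wild type replicate 2.

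Of 25 channel regulators, among them calmodulins, small GTPases and G protein subunits, 20 were tested and limma called 0 in each comparison, with 1 unadjusted p under 0.05 against P61S (4.01% of all probes) and 1 against wild type (5.04% of all probes), both for Rgs4. A count of 1 in 20 is near those shares. Rgs4, which speeds the shut-off of G proteins that inhibit calcium channels, was the member with the smallest p. It averaged 3.11 ± 0.02 in P61S/R100E, against 3.43 ± 0.01 in P61S and 3.50 ± 0.19 in wild type (SD, n = 3, 3 and 2), and the P61S/R100E arrays were below the other 5, as for 3.14% of all probes. The difference from P61S was -0.32 (SE 0.0900, limma unadjusted p = 0.00988 and adjusted p = 0.999), and from wild type -0.39 (SE 0.101, limma unadjusted p = 0.00616 and adjusted p = 0.746), or -0.25 without wild type replicate 2. Gem, a small GTPase that inhibits channel currents through β subunits, differed by 0.28 (SE 0.187) between P61S/R100E and P61S. The kinase gene Prkcb differed by 0.12 (SE 0.169) between P61S/R100E and wild type, and Gnb1, a G protein β subunit, by -0.24 (SE 0.126) between P61S and wild type. Prkcb turned to -0.10 and Gnb1 stayed at -0.24 without wild type replicate 2. The list's median was -0.06 against P61S and -0.16 against wild type.

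All 11 presynaptic partners were tested and limma called 0 in each comparison, with 1 unadjusted p under 0.05, that of Syt2 in P61S/R100E against wild type (5.04% of all probes). Bsn, a scaffold of the active zone, differed by 0.12 (SE 0.103) between P61S/R100E and P61S. Syt2, a calcium sensor for release, differed by -0.22 (SE 0.116) in P61S/R100E from P61S. From wild type it differed by -0.33 (SE 0.130, limma unadjusted p = 0.0396 and adjusted p = 0.746), or -0.15 without wild type replicate 2. Its P61S/R100E arrays were below the other 5, as for 3.14% of all probes. Erc2, another active zone scaffold, differed by 0.16 (SE 0.235) between P61S/R100E and wild type, and Rimbp2, which links calcium channels to the release machinery, by -0.17 (SE 0.128) between P61S and wild type. Without wild type replicate 2 they were 0.24 and -0.09. The list's median was 0.04 against P61S and -0.27 against wild type, and without wild type replicate 2 the median against wild type was 0.02.

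Of 19 other calcium entry and store genes 16 were tested and limma called 0 in each comparison. Those with an unadjusted p under 0.05 were 1 for P61S/R100E minus P61S (4.01% of all probes), 2 for P61S/R100E minus wild type (5.04%) and 1 for P61S minus wild type (2.07%), all named next. Atp2b1, a plasma membrane calcium pump, averaged 2.06 ± 0.01 in P61S/R100E against 1.87 ± 0.08 in P61S (SD, n = 3 each). The difference was 0.19 (SE 0.0750, limma unadjusted p = 0.0399 and adjusted p = 0.999). From wild type it was 0.15 (SE 0.0839), or 0.17 without wild type replicate 2. Orai1, the pore of store-operated entry, differed by -0.26 (SE 0.167) between P61S/R100E and P61S. Against wild type, Atp2a3, a pump of the endoplasmic reticulum, differed by 0.32 (SE 0.0971, limma unadjusted p = 0.0136 and adjusted p = 0.746) in P61S/R100E and by 0.21 in P61S, and without wild type replicate 2 by 0.40 and 0.30. Itpr2, a calcium release channel, differed by -0.33 (SE 0.138, limma unadjusted p = 0.0471 and adjusted p = 0.746) in P61S/R100E and by -0.40 (SE 0.138, limma unadjusted p = 0.0240 and adjusted p = 0.999) in P61S, and without that array by -0.20 and -0.26. For Atp2b1 and for Atp2a3 the P61S/R100E arrays were above all arrays of both other groups, as for 2.37% of all probes. The list's median was 0.04 against P61S and -0.16 against wild type.

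Without wild type replicate 2, the medians of the 5 lists for P61S/R100E minus wild type lay between -0.03 and 0.20, against 0.01 over all genes. With both wild type arrays all 5 were negative, from -0.27 to -0.10.

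**Figure D4:**
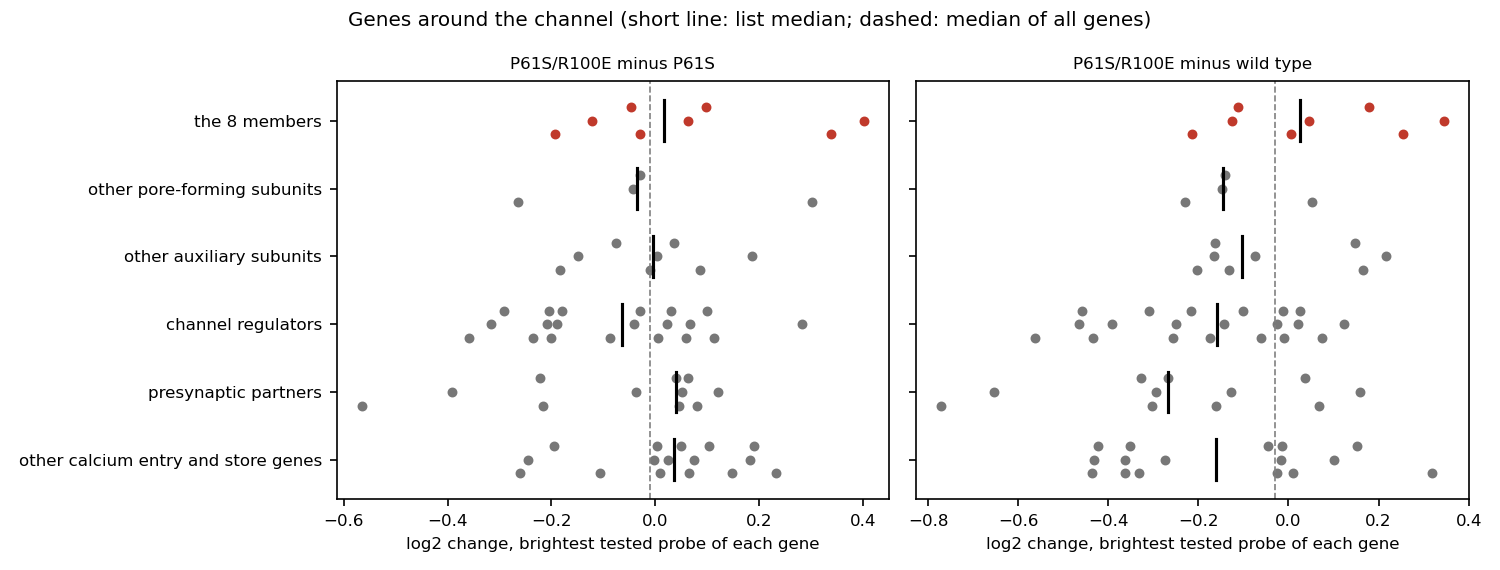
Log2 differences (horizontal axis) for P61S/R100E minus P61S and P61S/R100E minus wild type, with 1 point for the brightest tested probe of each gene, in rows for the 8 calcium channel genes and 5 lists of related genes; short vertical lines are list medians and dashed lines the median of all 12148 genes. Against P61S the 5 list medians lie between -0.06 and 0.04, and against wild type all 5 are below 0.

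Cell type markers give the cellular make-up beside these values. For P61S/R100E minus P61S the median over markers was -0.00 for sensory neurons (5 of 11 positive), -0.11 for nociceptors (0 of 6), 0.03 for large-diameter neurons (3 of 4), 0.00 for satellite glia (3 of 5), -0.01 for Schwann cells (3 of 8) and 0.14 for fibroblasts (6 of 6). It was 0.01 for macrophages (3 of 6), -0.17 for endothelial and mural cells (1 of 6) and 0.07 for skeletal muscle (2 of 4). Summed nociceptor signals were 109 to 118 in P61S/R100E arrays, 113 to 139 in P61S arrays and 121 to 123 in wild type arrays. Summed fibroblast signals were 132 to 162 in P61S/R100E arrays, 126 to 139.8 in P61S arrays and 139.7 to 139.8 in wild type arrays. Macrophage markers summed to 1.66 to 2.85 over all 8 arrays and those of endothelial and mural cells to 1.51 to 1.91. The muscle gene Myod1 was not well above background on every array, nor were Pecam1 and Tek of the vascular list and Kcnj10 of the satellite glia list. The part of any of these cell types in the Cacna2d1 and Cacna1c values was not tested.

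Cacna2d2 had the widest range of group means among the brightest probes of the 8 genes (0.40), and the genes with the most similar profile over the 8 arrays were looked up for it. Likeness was the root mean square difference of log2 values after centring each probe on its own mean. The nearest of 12147 other genes were Nt5dc3 (0.175), Ppp1r3a (0.181), Krt87 (0.186), Cmklr1 (0.186) and Gimap1 (0.204), where a flat profile would lie 0.412 away and the median gene lay 0.432 away. The arrays share the same slide, and on 2 of the 8 the spots of the Cacna2d2 probe disagreed.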

How the data were processed

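The authors deposited 8 scanner exports of 1-colour arrays (design 028279), 1 per sample, whose processed signal is, per the file headers, a background-subtracted spot intensity (software Feature Extraction 10.7.3.1, protocol GE1_107_Sep09). They also deposited a log2 table of 22018 probes, which followed the log2 scanner signals with correlations of 0.999 or more and was not normalized between arrays.

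For each spot the log2 processed signal was set against the array's own 75th percentile, then averaged per probe over spots that the software did not mark as outliers. A probe was tested where it was well above background, in all usable spots, on every array of at least 1 group (23585 probes). That reading of the filter was settled after a first fit that counted probes with at least 0.5 of their spots above background had been seen. Probes were named through RefSeq accessions, and 12369 of 30367 had no symbol. The brightest probe stood for a gene. Groups were compared in 1 limma fit of all 8 arrays run in limma 3.58.1 under R 4.3.3, with residual degrees of freedom of 5 and a prior of 1.93. Calls were made at 0.05 after Benjamini-Hochberg adjustment across every probe tested. The number of arrays limits the precision. In simulated data, sets of 50 probes were shifted 1.5, 2, 4 or 8-fold. The comparison with P61S recovered 12, 30, 41 and 47 and called 3 unchanged probes, and that with wild type recovered 8, 26, 39 and 47 and called 4. The simulated noise was normal and independent between arrays and probes, with each probe's fitted SD. It held no array that stood apart and no outlier spots, so these counts check the fit and are not the detection rate in these data.

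The 8 genes, the lists and the markers were chosen with earlier results of these data known. From each list the member with the smallest p in each direction was named, as none passed the adjusted threshold, and the 5 genes nearest in profile were named for the calcium channel gene with the widest range of group means. The motifs and the count of P61S/R100E arrays against all others were chosen after the values were seen. Alternatives were normexp (offset 50, on the median spot signal, since the exports hold no mean signal) with quantile normalization, quantile normalization alone, centring on the median of probes detected on all arrays, the deposited values, other filters, the replicate number, slide row or slide column in the fit, only the groups compared, a variance trend, all probes of a gene averaged, outlier spots kept, and each array left out. Promoter windows came from RefSeq (GRCr8), with no genome coordinates taken from the array design, which was built on rn4. Other software was Python 3.11.15 with numpy 2.4.6, pandas 2.3.3 and, for figures, matplotlib 3.10.9.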

Additional observations from a re-analysis of the deposited data

How the results depend on the processing

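The number of calcium channel probes past the adjusted threshold was 0 under every alternative run, except that leaving out single arrays gave 0 to 2 for P61S/R100E minus wild type, the 2 coming without wild type replicate 1. Of 528 recomputed gene values over 22 alternatives, 481 kept their sign and 47 turned, and none passed the threshold. Many of these could not turn. Other filters, a variance trend and fits of only the groups compared leave a difference of means as it is. So does leaving out an array of the group not compared. Averaging probes changes nothing for a gene with a single probe, nor does keeping outlier spots where none was marked. The kept signs are therefore not all separate checks. Cacna2d1 stayed positive under all 22 for P61S/R100E minus P61S (0.20 to 0.55) and for P61S/R100E minus wild type (0.13 to 0.46). Counting probes with at least 0.5 of their spots above background gave 24121 tested probes and 0 calls in each comparison. Over all probes limma called 0 in each comparison as reported, and 6 for P61S/R100E minus P61S with a variance trend. Without wild type replicate 1 it called 1283 for P61S/R100E and 298 for P61S against wild type, and the other alternatives gave 3 or fewer. Whether the replicate numbers pair the samples is not given in the labels, and so few arrays cannot settle it. Deviations of same-numbered P61S/R100E and P61S arrays from their group means had correlations of 0.05, -0.02 and 0.01. Those of same-numbered arrays with wild type were 0.10 and 0.17 for P61S and -0.16 and -0.20 for P61S/R100E. A replicate block left 0 calls and 851, 778 and 302 unadjusted p-values under 0.05 in the 3 comparisons. The calls made without wild type replicate 1 rest on a lone array assumed to vary like the other groups.

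Signs turned as follows, and the cause was not tested. With outlier spots kept, Cacna2d2 was -0.22 for P61S/R100E minus P61S and 0.47 for P61S minus wild type, and in the deposited values it was -0.22 and 0.48. With all probes of a gene averaged, Cacna1b was -0.29 for P61S/R100E minus wild type and -0.32 for P61S minus wild type. With slide column in the fit, Cacna1c was 0.036 for P61S/R100E minus P61S, which is the difference between the single arrays of each in their shared column. For P61S/R100E minus wild type that fit gave 0.11 for Cacna1a, -0.070 for Cacna2d3 and -0.036 for Cacnb3. For P61S minus wild type it gave 0.37 for Cacna1a, -0.061 for Cacna1b, 0.066 for Cacna1h and -0.42 for Cacna2d1. With slide row as a block, Cacna2d3 was -0.0068 for P61S/R100E minus wild type and Cacna1h 0.039 for P61S minus wild type. With normexp, Cacnb3 was -0.022 for P61S/R100E minus wild type, and for P61S minus wild type Cacna1h was 0.018, Cacna2d1 -0.047 and Cacna2d3 0.0025. Quantile normalization gave P61S minus wild type values of 0.0019 for Cacna1h and 0.0037 for Cacna2d3, centring on the median 0.035 and 0.00070, and the replicate block 0.0030 for Cacna2d3.

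Leaving out single arrays turned other signs. For P61S/R100E minus P61S the ranges were -0.096 to 0.031 for Cacna1a, -0.082 to 0.019 for Cacna1c, -0.022 to 0.16 for Cacna2d3 and -0.21 to 0.010 for Cacnb3. For P61S/R100E minus wild type they were -0.44 to 0.19 for Cacna1a, -0.51 to 0.081 for Cacna1h, -0.16 to 0.66 for Cacna2d2, -0.21 to 0.22 for Cacna2d3 and -0.070 to 0.18 for Cacnb3. For P61S minus wild type they were -0.41 to 0.22 for Cacna1a, -0.026 to 0.19 for Cacna1b, -0.14 to 0.0090 for Cacna1c, -0.32 to 0.27 for Cacna1h, -0.067 to 0.079 for Cacna2d1, -0.56 to 0.26 for Cacna2d2 and -0.27 to 0.16 for Cacna2d3. Some values kept their sign but moved over 1.5 times. For P61S/R100E minus P61S these were Cacna1b (0.0069 to 0.17), Cacna1h (-0.44 to -0.025), Cacna2d1 (0.20 to 0.45) and Cacna2d2 (0.21 to 0.70). For P61S/R100E minus wild type they were Cacna1b (0.071 to 0.29), Cacna1c (-0.19 to -0.038) and Cacna2d1 (0.21 to 0.46), and for P61S minus wild type Cacnb3 (0.053 to 0.28).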
